A study of Rattus norvegicus with 4 samples.

Results

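Messenger RNAs of 10 genes of the neuronal cytoskeleton and the growth cone were followed before and after neurons were washed off an astrocyte monolayer. The genes were Mapt, Map2, Dcx, Tubb3, Stmn2, Stmn3, Gap43, Nefl, Nefm and Ina. They were found as the probes whose gene name, or whose RefSeq transcript, is that of the gene. This gave 12 of the 41012 probes on the array, with a pair each for Mapt and Map2 and a single probe for every other gene. In the array annotation both Map2 probes carry the older name Mtap2, Nefm is Nef3 and Ina is Inexa.

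Neurites are built around bundles of microtubules and neurofilaments. Tubulin subunits such as Tubb3 form the microtubule, the associated proteins Mapt, Map2 and Dcx bind and stabilise it, and stathmins such as Stmn2 and Stmn3 bind free tubulin and promote its disassembly. Gap43 is a membrane-associated protein of the growth cone, the motile tip of a growing axon, and Nefl, Nefm and Ina are subunits of the neuronal intermediate filament. Most of these genes serve as neuronal markers, and an astrocyte fills its processes mainly with other intermediate filaments.

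Co-cultures (CC) were hippocampal neurons from E18 mouse embryos grown on a monolayer of cortical astrocytes from P1 Wistar rat pups. CC-CJ was the same kind of co-culture after cold jet, in which neurons are detached by jets of ice-cold buffer and aspirated while the astrocytes stay on the plate. AA-CJ was a monolayer of the rat astrocytes kept alone under similar conditions and given the same cold jet. The strain of the mice and the culture age of the array samples were not given in the sources used here. Both were primary cells for which no genetic change was stated. The neuronal RNA was of mouse while the probes were made for rat, so that mismatches could lower the signal of a neuronal transcript. Their part in any value was not tested.

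The RNAs were hybridised to 4 arrays of 2 colours. All 4 carried CC-CJ in Cy3, with CC as the Cy5 partner on 2 of them and AA-CJ on the other two. No dyes were swapped, so a dye effect and an effect of the condition cannot be told apart on a given array. Replicates came from different pools of 5 to 8 animals, and with 2 arrays per comparison p-values reach no further than these samples. The spread behind the p-values was pooled over both kinds of array and drawn partly from all probes (5.01 prior and 2 residual degrees of freedom). Between 50.1% and 62.6% of probes were well above background per channel, and all 12 probes of the 10 genes passed the filter for signal, as did 24864 probes in all. M is the log2 ratio of CC-CJ over the other RNA on the array, after normalization. Levels are normalized intensities in arbitrary units that include a constant of 50, which makes fold changes of dim probes smaller than they are. The level of a probe cannot be set against that of another probe.

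Of the 10 genes, 5 had an entry in the table of RefSeq promoters (rat build GRCr8), which runs from 250 bases before to 50 bases after the annotated start. Dcx, Stmn3 and Tubb3 are shown because they had the largest losses with cold jet among those 5, with Ina and Map2 as the others. Capitals mark the letters GGGCGG (the GC box), CCAAT (the CCAAT box) and TATAAA (the TATA box) on either strand, and no matches overlapped. The windows are chrX:112304112-112304411 on the minus strand for Dcx, chr3:188802445-188802744 on the minus strand for Stmn3 and chr19:68365437-68365736 on the plus strand for Tubb3, each printed 5′ to 3′ along its gene.
Dcx: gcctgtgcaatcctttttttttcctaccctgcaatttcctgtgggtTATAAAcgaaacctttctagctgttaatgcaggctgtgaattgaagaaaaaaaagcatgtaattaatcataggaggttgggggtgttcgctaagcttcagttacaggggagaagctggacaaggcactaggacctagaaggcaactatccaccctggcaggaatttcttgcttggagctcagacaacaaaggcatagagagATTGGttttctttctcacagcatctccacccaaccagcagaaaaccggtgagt
Stmn3: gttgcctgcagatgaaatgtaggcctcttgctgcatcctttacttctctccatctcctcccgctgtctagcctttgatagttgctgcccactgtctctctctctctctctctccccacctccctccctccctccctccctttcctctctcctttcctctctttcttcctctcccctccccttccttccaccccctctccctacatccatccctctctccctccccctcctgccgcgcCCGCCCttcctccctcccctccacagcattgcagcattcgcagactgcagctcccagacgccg
Tubb3: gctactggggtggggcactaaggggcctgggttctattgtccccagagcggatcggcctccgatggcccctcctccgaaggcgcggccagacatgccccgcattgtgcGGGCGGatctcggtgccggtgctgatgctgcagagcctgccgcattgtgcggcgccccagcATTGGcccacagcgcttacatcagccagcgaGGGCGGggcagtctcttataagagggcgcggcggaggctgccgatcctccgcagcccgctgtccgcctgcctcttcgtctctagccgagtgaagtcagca
The Tubb3 window was rich in G and C (67.3%) and held 26 CG dinucleotides, against medians of 51.7% and 7 over all 33469 promoters. Stmn3 (60% G and C, 7 CG) and Dcx (45%, 3 CG) lay nearer those medians. GGGCGG stood in the Tubb3, Stmn3 and Ina windows and in 33.1% of all promoters. CCAAT stood in the Dcx and Tubb3 windows and in 37.5% of all, and TATAAA in the Dcx window and in 14.2%. RE1, the element through which the repressor REST silences neuronal genes outside neurons, was searched by its first part, TTCAGCACC, which 0.356% of promoters held and none of the 5 windows did. These are rat sequences, and the neurons were of mouse.

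Cold jet lowered the mRNA of 7 of the 10 genes. All 12 probes had a mean M below 0 in CC-CJ versus CC, and 8 passed an adjusted p of 0.05, whereas 2.29% of the 24863 probes tested passed it in that direction. None was higher (0.0845% of all probes). The limit of the study's methods, 2 SD from the mean M on both arrays, took the same 8 probes (2.1% of all). The median M of the 12 probes was -1.17, against -0.03 over all probes. As that median was itself below 0, the sign alone says little. Relative to it, 11 of the 12 lay below and 1, Stmn2, above. The strongest falls were in Dcx, Mapt, Gap43 and Stmn3, a smaller one was in Tubb3, and those of Nefl and Ina were smaller again. Nefm and Map2 did not pass the test, and Stmn2 stayed near 0. Cold jet detaches neurons, which are then aspirated. The arrays hold no count of the neurons left, and the part of any change in RNA per neuron was not tested.

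**Figure D1:**
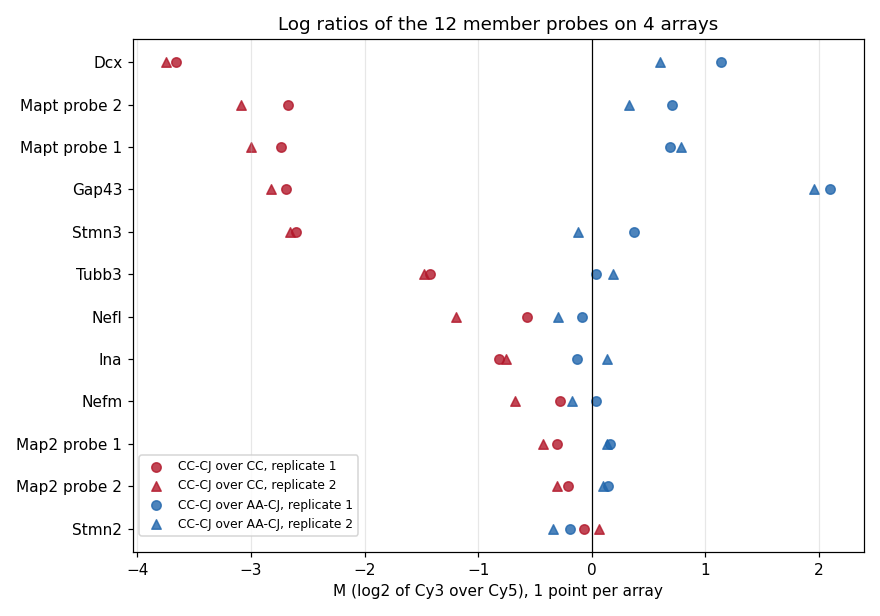
M of each probe on each array, on a log2 axis, with CC-CJ over CC in red, CC-CJ over AA-CJ in blue, and circles and triangles for replicates 1 and 2. Dcx lies furthest left at -3.66 and -3.75, Stmn2 lies at 0 in the comparison with CC, and Gap43 lies furthest right of AA-CJ at 2.10 and 1.96.

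Dcx, doublecortin of migrating and young neurons, is on rn4 chromosome X at 34672024 to 34672079 for its probe. Its level was 2583 and 2600.4 in CC and 204 and 194 in CC-CJ on the same arrays. In AA-CJ it was 70.6 and 79.2, on neither array well above background. No value of one RNA overlapped with another, CC being far above the rest. The fall with cold jet was -3.70 (SE 0.13, 13.0-fold, adjusted p = 6.31e-05), which was the lowest M of all 24864 probes. Its arrays did not overlap with those of the next probe in the order.

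Mapt encodes tau, a microtubule-binding protein of axons. Probe 1 lies on rn4 chromosome 10 at 93500916 to 93500975 and probe 2 at 93508449 to 93508508. Probe 1 read 1307 and 1778 in CC, 196 and 222 in CC-CJ on the same arrays, and 89.3 and 89.0 in AA-CJ. The groups stood apart in the order CC, CC-CJ, AA-CJ. Probe 2 read 1924 and 2777 in CC, 302 and 327 in CC-CJ, with 139 and 179 in AA-CJ. Both probes gave that order, and their falls were alike at -2.87 (SE 0.10, adjusted p = 6.31e-05) and -2.88 (SE 0.14, adjusted p = 0.00012), with overlapping arrays.

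Map2 is the microtubule-associated protein of dendrites and cell bodies, and it gave little signal here. Probe 1 (rn4 chromosome 9, 65229925 to 65229984) read 109 and 118 in CC, and was not well above background on any array in CC-CJ (75.8 to 88.2) or AA-CJ (68.0 and 69.5). The mean level in CC was 1.29-fold that in CC-CJ on the same arrays, with an adjusted p of 0.0947. Probe 1 was printed in 10 spots, whose M had an SD of 0.09 to 0.15 within an array. Probe 2 (65250572 to 65250631) read 129.8 and 130.5 in CC, 113 and 105 in CC-CJ, whereas AA-CJ gave 86.3 and 92.1, so its groups did not overlap. Its M values of -0.21 and -0.31 averaged -0.26 (SE 0.09) and did not pass the test (adjusted p = 0.207). With Feature Extraction's own processed signals, which carry no added constant, probe 1 had a mean M of -1.82 (adjusted p = 0.0511), and with a constant of 16 it was -0.64 (adjusted p = 0.0466).

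Tubb3, a beta-tubulin largely restricted to neurons, has its probe on rn4 chromosome 19 at 53751444 to 53751503. It read 386 and 402 in CC, 144 on both arrays in CC-CJ, whereas AA-CJ gave 108 and 97.5. CC was the high group, and CC-CJ lay close above AA-CJ. The fall was -1.45 (SE 0.09, 2.73-fold, adjusted p = 0.000276). It was 1.18 smaller on the log2 scale than that of Stmn3, the next deeper one. Without the constant, in Feature Extraction's processed signals, it came to -2.31.

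The stathmins went apart. Stmn3 (rn4 chromosome 3, 170447030 to 170447089) read 1987 and 1766 in CC, 327 and 279 in CC-CJ on the same arrays, and 176 and 212 in AA-CJ. It fell by 2.63 on the log2 scale (SE 0.13, 6.20-fold, adjusted p = 0.00012), with CC far above both groups given cold jet. Stmn2 (rn4 chromosome 2, 95285271 to 95285330), known also as SCG10 and placed in growth cones, read 6435 and 5788 in CC and 6142 and 6057 in CC-CJ. In AA-CJ, with no neurons plated, it read 7574 and 8030. The probe was thus bright in every RNA, highest in AA-CJ, and CC and CC-CJ overlapped. Its mean M in CC-CJ versus CC was -0.00 (SE 0.09, adjusted p = 0.997), with no settled sign across the processing alternatives. Stmn2 is on this array a single probe, and which transcript gave its signal in AA-CJ was not tested.

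Gap43 has its probe on rn4 chromosome 11 at 60083891 to 60083950, printed in 10 spots of which 8 were used per array. It read 6018 and 6388 in CC, 931 and 899.6 in their CC-CJ partners and 203 and 207 in AA-CJ. The groups were far apart, with CC-CJ between the other two. The fall was -2.76 (SE 0.09, 6.78-fold, adjusted p = 6.31e-05), and the spots within an array had an SD of M of 0.05 to 0.07. Gap43 had the eighth lowest M of all probes, after Dcx in first place and Mapt probes 2 and 1 at ranks 4 and 5, and before Stmn3 at rank 10.

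Of the intermediate filament subunits, Nefl and Ina fell and Nefm did not pass the test. Nefl, the light neurofilament subunit (rn4 chromosome 15, 47638898 to 47638957), read 266 and 387 in CC, 179 and 169 in CC-CJ, whereas AA-CJ gave 183 and 185. CC was high, and the groups given cold jet lay together. The fall was -0.88 (SE 0.15, adjusted p = 0.0302), from arrays at -0.57 and -1.19. It did not pass without CC replicate 2 (-0.57, adjusted p = 0.217), without background correction (adjusted p = 0.0586) or with Feature Extraction's signals (-1.32, adjusted p = 0.203).

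Ina, alpha-internexin, which appears early in developing neurons, has its probe on rn4 chromosome 1 at 252340311 to 252340370. Its level was 279 and 269.8 in CC, 159 and 160.0 in CC-CJ, whereas AA-CJ gave 163 and 143, again with CC alone at the top. The fall was -0.78 (SE 0.10, adjusted p = 0.00804), and it missed the threshold without CC replicate 2 (adjusted p = 0.055) and with Feature Extraction's signals (-1.25, adjusted p = 0.0594). Nefm, the medium subunit (rn4 chromosome 15, 47698645 to 47698704), read 238 and 288 in CC, 195 and 180 in CC-CJ, whereas AA-CJ gave 190 and 194. CC was higher than the rest on both arrays, and the mean M of -0.48 (SE 0.12) had an adjusted p of 0.11. Nefl and Ina overlapped in the order of the falls, as did Nefm and Map2.

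**Figure D2:**
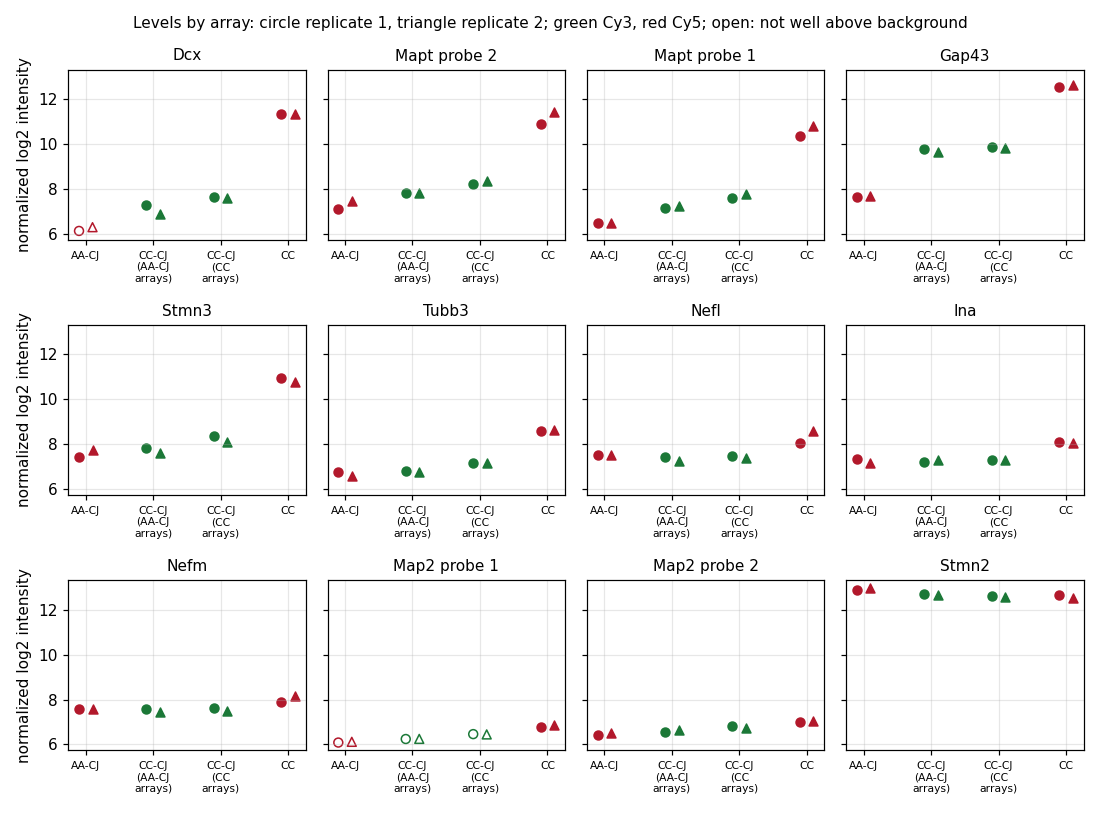
Normalized log2 intensity of each probe by RNA and array, with the 2 replicates as circle and triangle, Cy3 in green, Cy5 in red and open symbols where the probe was not well above background. Dcx, Mapt, Gap43, Stmn3 and Tubb3 stand high in CC alone, whereas Stmn2 is bright in every RNA, with 7574 and 8030 in AA-CJ on the linear scale.

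The comparison of CC with AA-CJ sets the whole co-culture against astrocytes alone. The groups differ in cold jet as well as in the neurons plated, and these cannot be told apart here. Both RNAs were in Cy5, on different arrays joined by CC-CJ. Here 7 probes of 6 genes were higher in CC, against 2.6% of all probes, and none was lower (0.0644% of all). The median difference was 1.17 (0.01 over all probes), and 11 of the 12 lay above 0 and above the median of all probes. Gap43 was higher by 4.79 (SE 0.13, 27.7-fold, adjusted p = 6.05e-05), above Dcx in this fit but below it with an offset of 16 (5.06 against 5.48) and with Feature Extraction's signals (5.34 against 7.75). Mapt was higher by 3.60 (SE 0.14) at probe 1 and 3.40 (SE 0.19) at probe 2. Dcx was higher by 4.57 in this fit (SE 0.19, 23.8-fold, adjusted p = 0.000111). It was not well above background in AA-CJ. On the levels scaled between arrays, a scale other than that of the fit, the mean of CC was 34.7-fold that of AA-CJ. Stmn3 was higher by 2.76 (SE 0.18, adjusted p = 0.000405), Tubb3 by 1.56 (SE 0.12, adjusted p = 0.00101) and Ina by 0.79 (SE 0.14, adjusted p = 0.0343).

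This comparison was computed as the difference between CC-CJ versus AA-CJ and CC-CJ versus CC. It reuses the same arrays, CC samples included, and is not separate evidence. Nefl, one of the genes lowered by cold jet, was at 0.69 (SE 0.21, adjusted p = 0.163) over AA-CJ. Among the alternatives tried, this value passed only where CC replicate 1 was left out (1.00, adjusted p = 0.0265). The excess of Ina was lost in several alternatives, among them leaving out AA-CJ replicate 2 (0.65, adjusted p = 0.0721), CC replicate 1 (0.76, adjusted p = 0.0831) or CC replicate 2 (0.82, adjusted p = 0.0875). Nefm was at 0.41 (adjusted p = 0.27) and Map2 probe 2 at 0.38 (adjusted p = 0.18). Map2 probe 1 was at 0.51 (1.43-fold, adjusted p = 0.0905). On the levels scaled between arrays, with AA-CJ at background, the mean of CC was at least 1.62-fold that of AA-CJ. For Stmn2 the value was below 0, at -0.27 (SE 0.13, adjusted p = 0.346).

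After cold jet, Gap43, Dcx and Mapt still exceeded the level of astrocytes alone. In CC-CJ versus AA-CJ, 3 of the 12 probes were higher, against 2.12% of all probes, and none was lower (1.17% of all). The limit of 2 SD on both arrays took the same 3 probes (1.67% of all). The 12 probes had a median M of 0.12 (-0.01 over all probes), with 9 of them above 0 and above the median of all probes. Gap43 read 870 and 805 in CC-CJ on these arrays, and its partner AA-CJ 203 and 207. Its M was 2.10 and 1.96, a mean of 2.03 (SE 0.09, 4.08-fold, adjusted p = 0.000269). This was the one gene of the set that passed without AA-CJ replicate 1, where the count was 1.

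In AA-CJ Dcx was not well above background. It read 155 and 120 in CC-CJ on these arrays, a mean of 1.83-fold its level in AA-CJ (adjusted p = 0.0249), with M of 1.14 and 0.60. Without AA-CJ replicate 1 its adjusted p was 0.0857, and with Feature Extraction's signals M was 3.11 with an adjusted p of 0.113. Mapt probe 1 was higher by 0.74 (SE 0.10, adjusted p = 0.0174), and without AA-CJ replicate 1 this too missed the threshold (adjusted p = 0.061). Mapt probe 2, at 0.71 and 0.32 on its arrays, averaged 0.52 (SE 0.14, adjusted p = 0.0848). The probes of Mapt thus lay on different sides of the threshold with the same direction.

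The other genes did not pass in this comparison. Stmn3 was at 0.37 and -0.13, and Tubb3 at 0.03 and 0.18. The filament genes lay around 0, with Nefl at -0.09 and -0.29, Nefm at 0.03 and -0.17 and Ina at -0.13 and 0.13. Map2 was at 0.16 and 0.13 for probe 1 and 0.15 and 0.10 for probe 2. The SE of these means was 0.09 to 0.15, and differences within such errors were not detectable with 2 arrays. Median centring in place of the intensity-dependent fit moved the median of all probes to -0.50, and relative to it 9 member probes lay above and 3 below, as in the fit reported here (its median -0.01).

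The share of co-culture mRNA that was left was taken as CC-CJ minus AA-CJ over CC minus AA-CJ, on linear levels and per replicate number. All CC-CJ signal above AA-CJ counts as left, which would include any rise in the astrocytes themselves. That part was not tested. The share is given for the 6 probes of 5 genes that were at least 2-fold higher in CC than in AA-CJ. Dcx had 5.31% and 4.55% left (mean 4.93% ± 0.54, SD, n = 2). Stmn3 had 8.33% and 4.31% left (6.32% ± 2.84), and Mapt 8.32% ± 0.60 at probe 1 and 7.41% ± 2.44 at probe 2. Gap43 had 12.5% and 11.2% left (11.9% ± 0.93) and Tubb3 12.8% and 15.4% (14.1% ± 1.81). The values of Dcx, Gap43 and Tubb3 did not overlap with each other, while those of Stmn3 overlapped with Dcx and with both probes of Mapt. The mean over the 6 probes was 8.82% ± 0.92, with medians of 8.94% and 6.79% by experiment. The 339 other probes that met the same conditions were not chosen for neuronal function. Their mean was 33.6%, with medians of 28.7% and 23.0%. The levels that set the conditions also enter the share, and the members were chosen with earlier results of these data known. This contrast is therefore a description and not a test.

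**Figure D3:**
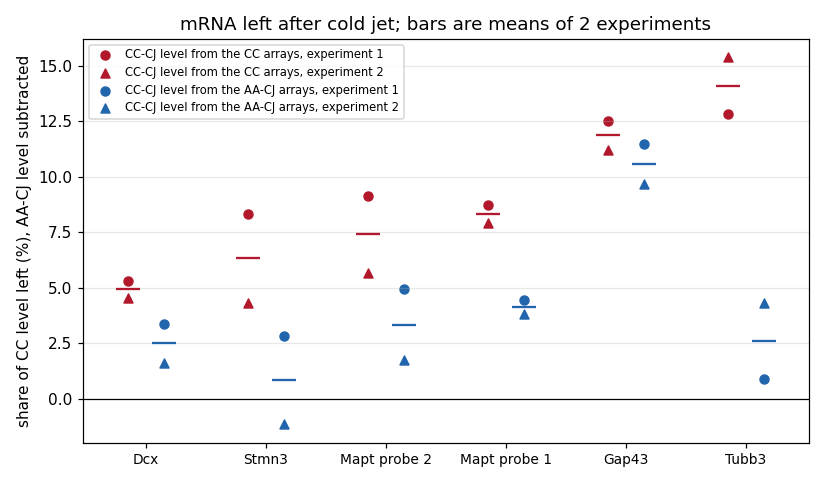
Share of the CC level left after cold jet, in percent with the AA-CJ level subtracted, for the 6 probes at least 2-fold higher in CC than in AA-CJ, with bars at the mean of experiments 1 (circles) and 2 (triangles). Red symbols take CC-CJ from the CC arrays and blue ones from the AA-CJ arrays. The blue shares are lower for all 6, and for Gap43 they stay close to the red ones.

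These shares depended on which array gave the CC-CJ level. With CC-CJ read on the AA-CJ arrays they came to 2.50% for Dcx, 0.851% for Stmn3, 4.13% and 3.35% for Mapt, 2.63% for Tubb3 and 10.6% for Gap43, with a mean of 4.005%. Gap43 in place of Tubb3 then had the highest mean share left, and Stmn3 in place of Dcx the lowest. The CC-CJ level of Tubb3 was 144 on both CC arrays and 111 on both AA-CJ arrays, and that of Stmn3 was 327 and 279 against 227 and 195. Before normalization, the Cy3 signal over background of Stmn3 was 126 and 102 on the CC arrays and 83.9 and 70.4 on the AA-CJ arrays. That of Gap43 was 428 and 393 against 425 and 391. The part of dye, bright Cy5 partner, array or CC-CJ sample in this gap was not tested. Without subtraction of the AA-CJ level the mean share was 17.1%, and that of Tubb3 was 36.6%.

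The wider cytoskeleton was counted in lists of related genes. Among other microtubule proteins, 8 of 27 probes (5 of 13 genes) fell with cold jet, led by Tubb2b, a beta-tubulin of developing brain, at -1.37 and Stmn1, the ubiquitous stathmin, at -1.35. Of 20 probes for other growth cone proteins 4 fell, with Rtn1 at -2.04 and Dpysl3, a collapsin response mediator, at -1.53. Axonal motors had 3 of 20 lower, including the kinesin light chain Klc1 at -1.95 and the dynein intermediate chain Dync1i1 at -1.95. Another Klc1 probe, at -0.58 (adjusted p = 0.294), did not pass. The spectrin and ankyrin scaffold under the axonal membrane had 3 of 8 lower, with Add2, an adducin, at -1.97.

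None of the 6 probes for other intermediate filaments passed in CC-CJ versus CC. Prph, the filament of peripheral neurons, was at -0.47 (adjusted p = 0.0597) and Nefh, the heavy neurofilament subunit, at 0.07. No probe of these 5 lists passed the test as higher in CC-CJ than in CC, and the median M of each lay between -0.27 and -0.12. Against AA-CJ, Gpm6a of the growth cone list (1.42, adjusted p = 0.00327) and Prph (1.45, adjusted p = 0.00112) were the ones that passed as higher in CC-CJ. Another Gpm6a probe, at 0.34 (adjusted p = 0.142), did not pass.

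**Figure D4:**
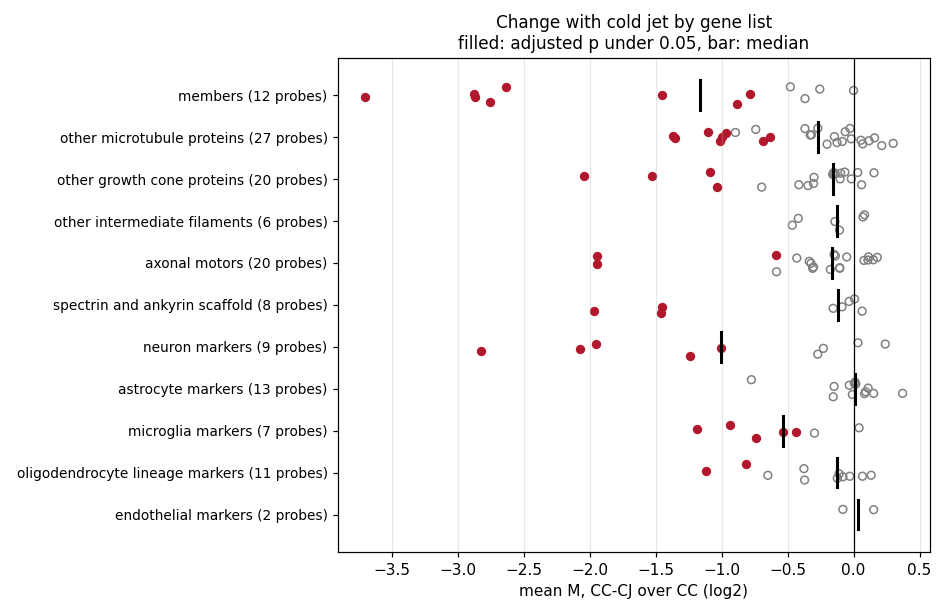
Mean M of CC-CJ over CC, on a log2 axis, for each kept probe of the lists, with filled points for an adjusted p under 0.05 and bars at the median of a list. The 10 genes reach from -3.70 to 0, further left than any other list, neuron markers come next at -2.82, and no astrocyte marker is filled.

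Some of the cell type markers changed as well, mostly those of neurons and microglia. Of 9 probes for neuron markers 5 fell with cold jet, with Elavl4 at -2.82 and Elavl3 at -2.07, while Thy1 (0.03) and Eno2 (0.24) did not pass. After subtraction of the constant, the 16 neuron marker probes summed to 6835 and 6925 in CC, 5636 and 5589 in CC-CJ on these arrays and 5292 and 5059 in AA-CJ, where 4 and 5 of them were well above background. Most of these sums came from Eno2, and the other 15 probes summed to 2491 and 2918 in CC, 652 and 703 in CC-CJ, while AA-CJ gave 404 and 401. None of 13 probes for astrocyte markers passed in CC-CJ versus CC, and the summed level of this list was 59365 and 62157 in CC, 61230 and 64003 in the CC-CJ partners and 51247 and 63641 in AA-CJ. Microglia markers also changed, with 5 of 7 probes lower, among them both probes of the complement gene C1qa at -1.19 and -0.94. Their summed level over 11 probes was 1491 and 1499.6 in CC, 809 and 751 in CC-CJ on the same arrays and 342 and 428 in AA-CJ. Of 11 probes for the oligodendrocyte lineage 2 fell (Sox10 at -1.12 and Mag at -0.82), and neither of 2 endothelial probes did. Against AA-CJ, some markers were higher too. In CC-CJ versus AA-CJ these were 3 of 7 microglia probes, with C1qa at 1.43 and 0.95 and Tyrobp at 0.77, 1 of 9 neuron probes (Elavl4 at 0.57, adjusted p = 0.0469) and 1 of 13 astrocyte probes (Aqp4, the astrocyte water channel, at 0.94, adjusted p = 0.00755). In CC versus AA-CJ, 4 microglia, 5 neuron and 1 astrocyte probe (Aqp4 at 0.92, adjusted p = 0.0188) were higher. So was 1 oligodendrocyte lineage probe (Mag at 0.89, adjusted p = 0.0236). Other kept Aqp4 probes did not pass. They lay at 0.51 (adjusted p = 0.0642) and 0.07 (adjusted p = 0.677) in CC-CJ versus AA-CJ. In CC versus AA-CJ they lay at 0.13 (adjusted p = 0.719) and 0.11 (adjusted p = 0.709). Tyrobp and the Aqp4 probes are named after their values were seen. The part of these cell types in the values of the 10 genes was not tested.

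The 5 genes nearest to the median profile of the 12 probes, by Euclidean distance over the 4 values of M, were Iqsec3 (0.09), Ppfia2 (0.20), Rab6b (0.20), Grin1 (0.20) and Rgs7 (0.21). The median profile had M of 0.15 and 0.13 against AA-CJ and -1.12 and -1.34 against CC. Iqsec3 read 0.17 and 0.15 against AA-CJ and -1.17 and -1.27 against CC. Grin1, a subunit of the NMDA receptor, read 0.15 and 0.15, and -1.24 and -1.17.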

How the data were processed

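RNA of CC, CC-CJ and AA-CJ was hybridised to 4 arrays with 2 colours on 1 slide. The authors deposited the spot intensities of Agilent Feature Extraction 9.5.1.1 on a linear scale, with Agilent's log10 ratio beside them, which was not used. A deposited series table holds the authors' normalized values, read here as log2 of Cy5 over Cy3 (correlation with M across probes, which are not independent, 0.923 to 0.969 per array after turning the sign). Its centring is unknown.

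Mean signals were corrected here with limma 3.58.1 (R 4.3.3) by normexp with an offset of 50 and normalized by loess within arrays (span 0.3). Control and outlier spots (121 to 179 per array) were left out and spots of a probe averaged. A probe was kept if some RNA group had it well above background on all its arrays. M values of all 4 arrays entered lmFit and eBayes with a coefficient for each comparison, shared spread and Benjamini-Hochberg adjustment over 24863 probes. The study's methods used no such test but a limit of 2 SD on both arrays, tried as an alternative. Levels were also scaled between arrays (Aquantile). The fit was tested on simulated data. All member probes are named. From each list the 2 lowest and 2 highest probes could be named, as could the 5 genes of nearest profile. Other probes of a named gene were added where they differed. Members and lists were chosen with earlier results of these data known. Promoters are from RefSeq. The number of arrays limits the precision.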

Additional observations from a re-analysis of the deposited data

How the results depend on the processing

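Other background corrections, normalizations, filters, the authors' table, the 2 SD limit and gene means were tried, and of 522 single-probe values 473 kept their direction and side of the threshold. Counts of member probes ranged from 6 to 12 for lower in CC-CJ than CC, 1 to 4 for higher in CC-CJ than AA-CJ and 6 to 8 for higher in CC than AA-CJ. Calls over all probes changed with the setting too, as given below, so these counts have no fixed share of all probes beside them. With Feature Extraction's signals 6 member probes were lower in CC-CJ than CC, beside 306 of all probes. Leaving out 1 array gave 6 to 9, 1 to 4 and 6 to 7, and shares of 8.17% to 9.48%. The mean share was 17.1% with no subtraction, where the added constant stays in the levels and raises it. It was 4.005% with CC-CJ from the AA-CJ arrays, 6.48% with Feature Extraction's signals and 7.70% with an offset of 16. Over all probes, calls lower in CC-CJ than CC went from 570 to 306 with Feature Extraction's signals, 296 with probes well above background everywhere, 229 without CC replicate 2, 859 without either AA-CJ array and 15902 (with 691 higher) under median centring, which moves the median of all probes to -0.62. Calls higher in CC-CJ than AA-CJ went from 528 (292 lower) to 76 (11 lower) with Feature Extraction's signals, 331 (94 lower) with an offset of 16, 142 without AA-CJ replicate 1 and 788 (14591 lower) under median centring. Calls higher in CC than AA-CJ went from 646 to 271 with Feature Extraction's signals, 380 with probes well above background everywhere and 380 without CC replicate 2. Calls higher in CC-CJ than in CC rose from 21 to 106 (552 lower) under the local regression and 192 (675 lower) in the authors' table.

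With the replicate number as a block, 8, 3 and 6 member probes passed in these comparisons (without Ina in CC against AA-CJ, adjusted p = 0.0655), and the calls over all probes were 394, 247 and 413. Deviations of same-numbered arrays correlated at -0.13 across probes, so the numbers were not taken as pairs in the fit. Over the member probes this correlation was 0.24, and the Cy3 values of same-numbered arrays lay closest (SD of the log2 difference 0.125 and 0.135, against 0.160 to 0.192 for the other pairs of arrays). The shares do use the numbers, and with the AA-CJ level as the mean of both arrays their mean was 8.82%. With the numbers crossed in the block, an alternative chosen after seeing the data, 8, 3 and 7 passed.

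Signs that turned were all of values that did not pass in the fit reported. Stmn2 in CC-CJ versus CC was 0.0279 with Feature Extraction's signals, 0.0167 with an offset of 16, 0.0514 under local regression on intensity and location, 0.073 in the authors' table and between -0.0673 and 0.0654 with 1 array left out. Ina in CC-CJ versus AA-CJ was -0.0714 with Feature Extraction's signals, -0.0182 with no background correction, -0.0202 under local regression, -0.0581 in the authors' table, -0.411 under median centring and between -0.13 and 0.133 with 1 array left out. Under median centring Mapt probe 2 was at -0.026, Stmn3 at -0.461 and Tubb3 at -0.00766, of which all lay above the median of all probes of -0.50. With 1 array left out Stmn3 lay between -0.125 and 0.37, and Nefm between -0.173 and 0.0346. The cause was not tested.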
